A study of Mus musculus with 236 samples.

Results

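Epas1 and 7 further genes of the hypoxia factor family (Hif1a, Arnt, Arnt2, Egln1, Egln3, Vhl and Vegfa) were followed through the first days of mouse embryonic stem cell differentiation. They are 8 of the 39300 genes in the expression table, and all 8 were among the 13777 genes with at least 20 UMIs (unique molecular identifiers, 1 per captured RNA molecule). Epas1 was selected on its readout, since its change from day 0.5 to day 2.5 was the lowest of the 7716 genes with at least 100 UMIs. The other 7 genes were chosen by name, as a related factor, partners, regulators and a known target, with earlier results of these data known. The contrast between the days is therefore a description for every one of the 8 genes.

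Epas1 encodes the alpha subunit of hypoxia-inducible factor HIF2, and Hif1a that of HIF1. When oxygen is plentiful, prolyl hydroxylases mark both alpha proteins, the VHL protein recognises the mark and the alpha subunit is degraded. When oxygen is scarce the alpha subunit persists, pairs with ARNT or its relative ARNT2, and binds short DNA motifs near target genes of glycolysis, mitochondrial turnover and blood vessel growth. Much of this control acts on protein, which these RNA data do not measure.

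The cells came from 1 female mouse embryonic stem cell line bred from a C57BL/6J mother and a CAST/EiJ father, so every cell carries both genomes. Differentiation was begun on fibronectin in serum medium by taking away LIF together with PD0325901, which inhibits MEK, and CT99021, which inhibits Gsk3. Cells were taken at day 0.5 and day 2.5, and HiRES, which captures chromatin contacts and RNA of the same cell, was applied to each. The 236 libraries name 471 cells, and 406 of them were in the expression table, 201 from day 0.5 and 205 from day 2.5. No cell name occurred in more than 1 library. Since nothing ties the cells of a day to separate cultures, each day is 1 sample with no replicate, and no p-value is given. No source used here states the oxygen tension of the cultures.

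The median cell held 13670 UMIs at day 0.5 and 15796 at day 2.5, and 7 cells of each day held fewer than 5000. A column of the cell table headed "sample" divides the cells into 3, called batches in what follows, and whether these are cultures, plates or runs is unknown. Only batch 2 contains both days, with day 0.5 cells in batch 1 and day 2.5 cells in batch 3 as the rest. Levels are UMIs of all cells of a day per 1000000 (CPM) with a 95% exact Poisson interval that covers counting error only. A gene was called higher or lower when its CPM differed by at least 1.5 times between the days, in the same direction in the cells named with the letter A and in those named with B. Of the general pluripotency markers, L1td1 was found in 188 day 0.5 and 176 day 2.5 cells, at 286.5 and 161.96 CPM. Tdgf1 stood at 218.2 and 175.5 CPM, and Sall4 at 133.5 and 126.8 CPM. Sox2 went from 32.8 to 7.06 CPM and Pou5f1 from 31.3 to 13.5 CPM. The naive gene Esrrb stood at 339 CPM at day 0.5 and 12.4 CPM at day 2.5, and the formative gene Fgf5 at 3.01 and 121 CPM. Of the fibroblast and mesenchyme list, Col1a2, Col3a1 and Postn had no UMI at day 0.5. The fibronectin gene Fn1 of that list, which other cells express too, stood at 449 CPM in 182 day 0.5 cells and 88.98 CPM at day 2.5, called lower. Thy1, the other measured gene, had 15 and 5 UMIs and was called neither, since the letters did not move the same way. Col1a1 had 1 UMI at day 0.5 and none at day 2.5.

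The RefSeq promoter table of build GRCm38.p6 held entries for 7 of the 8 genes, of which 4 are printed as the 250 bases before a start of transcription in that table, because 3 of them belong to genes called higher and 1 to the remaining alpha subunit. Capitals mark ACGTG or GCGTG on either strand, the core letters that HIF complexes bind. Where ACGTG is read on both strands as CACGTG, the matches overlap. The entries of Hif1a and Arnt2 precede a start that lies inside the gene span of the RefSeq gene table, so they are internal to those spans.
Egln1, chr8:124949255-124949504, minus strand: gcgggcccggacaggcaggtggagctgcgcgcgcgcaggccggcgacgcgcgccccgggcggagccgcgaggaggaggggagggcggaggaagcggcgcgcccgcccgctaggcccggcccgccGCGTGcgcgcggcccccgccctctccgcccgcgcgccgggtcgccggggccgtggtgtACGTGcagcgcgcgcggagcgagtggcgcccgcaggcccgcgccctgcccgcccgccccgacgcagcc
Egln3, chr12:54203875-54204124, minus strand: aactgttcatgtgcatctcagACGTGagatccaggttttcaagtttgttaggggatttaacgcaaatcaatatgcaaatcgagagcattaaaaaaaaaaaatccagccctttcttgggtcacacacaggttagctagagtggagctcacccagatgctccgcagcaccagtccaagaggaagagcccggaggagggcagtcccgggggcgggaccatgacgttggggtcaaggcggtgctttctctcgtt
Hif1a, chr12:73907617-73907866, plus strand: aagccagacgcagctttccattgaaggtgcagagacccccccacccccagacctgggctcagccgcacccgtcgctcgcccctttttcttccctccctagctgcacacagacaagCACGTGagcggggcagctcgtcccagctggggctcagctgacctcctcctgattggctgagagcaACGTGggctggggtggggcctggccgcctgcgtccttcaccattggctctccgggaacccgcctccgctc
Arnt2, chr7:84410039-84410288, minus strand: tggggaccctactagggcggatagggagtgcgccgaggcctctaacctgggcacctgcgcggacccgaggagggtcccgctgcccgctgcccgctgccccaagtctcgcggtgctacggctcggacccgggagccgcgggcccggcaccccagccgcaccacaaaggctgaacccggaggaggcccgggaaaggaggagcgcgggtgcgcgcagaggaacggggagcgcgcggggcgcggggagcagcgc
Egln1 held ACGTG with its first letter 68 bases before the start and GCGTG 126 bases before it, Egln3 held ACGTG 229 bases before it, and Arnt2 held neither. Of the 7 genes with an entry, 5 held at least 1 of the motifs. Among all 27025 genes of the table, 41.5% held one in at least 1 promoter, so the letters are common. A match is a string of letters and does not show that a factor binds there.

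Epas1 was nearly absent after 2 further days. Its gene lies at chr17:86753864-86833410. At day 0.5 the 201 cells held 0 to 17.5 Epas1 UMIs with a median of 4, and at day 2.5 the 205 cells held 0 to 1 with a median of 0. The groups overlapped at values of 0 to 1, which held all day 2.5 cells and a minority of day 0.5 cells: 158 day 0.5 cells had at least 2 UMIs, 82 at least 5 and 18 at least 10. The summed level was 345 CPM (323 to 368) at day 0.5 and 2.04 CPM (0.786 to 4.31) at day 2.5, which is 169-fold lower (79.6 to 440-fold). This was a log2 change of -5.64 with 5 CPM added to each level, against a median of -0.06 over all measured genes. The second lowest change was that of Jam2, a junctional adhesion molecule, at -5.55. Epas1 was called lower, as were 20.4% of measured genes, a share that says nothing further here because the contrast chose the gene.

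The difference was found in each batch, letter and cell cycle class that holds at least 10 cells of both days, with a size that rests on few UMIs at day 2.5. At day 0.5 Epas1 stood at 346 CPM in batch 1 and 344 CPM in batch 2. At day 2.5 it stood at 2.25 CPM in batch 2 and 1.77 CPM in batch 3. In letter A cells it stood at 347 and 1.93 CPM, and in letter B cells at 329 and 2.97 CPM. The fold was 152 within batch 2, 180 in letter A and 110.7 in letter B, where the interval begins at 19.5-fold. Within batch 2 alone, day 2.5 was at 0.00656 of day 0.5 (0.00178 to 0.0169). By the authors' cell cycle classes the day 0.5 level was 387 CPM in G1, 335 in early S, 328 in mid S, 354 in late S and 303 in M, and the intervals of all 5 overlapped. None of the day 2.5 classes with at least 10 cells exceeded 4.04 CPM, the level of early S, where day 2.5 was at 0.0120 of day 0.5 (0.000303 to 0.0682). In late S day 2.5 had no UMI, at least 24.2-fold lower. The M and G2 classes had at least 10 cells on 1 day only. The earlier and the later part of the day 0.5 cells along the authors' pseudotime score stood at 350 and 344 CPM. At day 2.5 the earlier part stood at 4.38 CPM (1.19 to 11.2) and the later at 1.05 CPM (0.0266 to 5.84). These rest on 4 UMIs and 1 UMI, and their intervals overlapped.

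**Figure D1:**
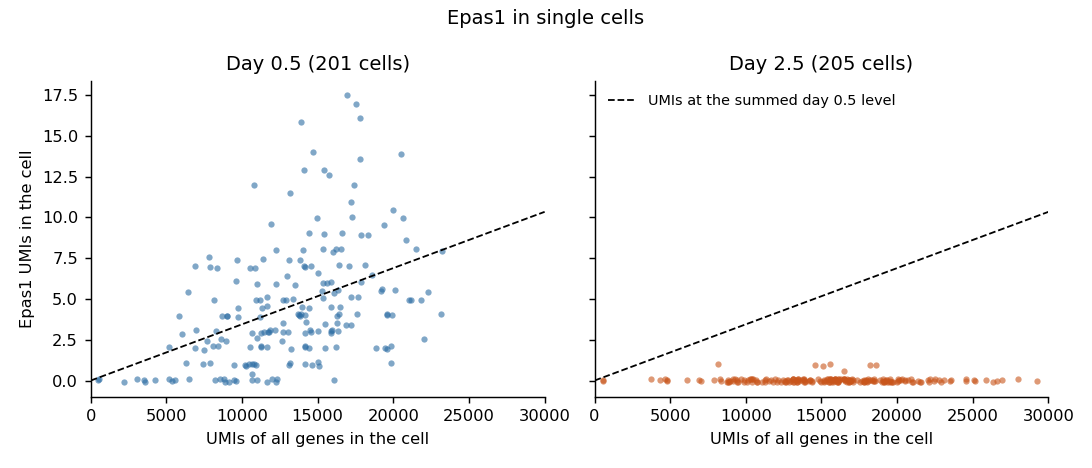
Epas1 UMIs (vertical axis) against the UMIs of all genes (horizontal axis) in each of 201 day 0.5 and 205 day 2.5 cells, with a small vertical shift added to part the points. The dashed line gives the UMIs a cell would hold at the summed day 0.5 level of 345 CPM. Day 0.5 cells scatter around it up to 17.5 UMIs, and no day 2.5 cell exceeds 1.

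Most day 0.5 cells held Epas1, but not evenly. An Epas1 UMI was found in 176 of 201 day 0.5 cells (87.6%, exact interval 82.2 to 91.8%), and in an expected 73.8% when the 194 cells with at least 5000 UMIs were thinned to 5000 each. If every cell had the same level, 7.65 of the 201 cells would have held none, and 25 did. Among the 194 deeper cells, 18 held none where 4.33 would. The 25 cells held 501 to 16103 UMIs in all, with a median of 8550, against 13670 over all day 0.5 cells. Of the 25, 22 were among the 121 day 0.5 cells of batch 2 and 7 among the 15 of the M class. Letter B, whose 42 day 0.5 cells all lie in batch 2 with a median of 8181.5 UMIs, held 10 of the 25. In the 25 cells the naive list, 15 genes of the state that precedes differentiation, summed to 370 to 3660 CPM with a median of 1366. All day 0.5 cells together had a median of 1306.

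At day 2.5 an Epas1 UMI was found in 7 of 205 cells (3.41%, 1.38 to 6.91%), or an expected 1.17% after thinning. Of these, 6 held 1 UMI and the other a fractional value of 0.5. None of the 205 held 2 or more. An approximate upper limit for a count of 0, taken as 3 divided by the 205 cells, is a share of 1.46%. The 7 cells held 8140 to 18609 UMIs and would have held 2.81 to 6.42 Epas1 UMIs each at the day 0.5 level. Their own level of 30.3 to 123 CPM is the level of at most a single UMI. Over all day 2.5 cells 1099 Epas1 UMIs would have been found at the day 0.5 level, against 6.5 found. The share of day 2.5 cells with a UMI was 0% for the fibroblast marker Col1a1, 1.46% each for the markers Col1a2, Col3a1 and Cdh5, 3.90% for Tie1, 5.37% for Emcn, 13.2% for Erg and 20.98% for Tek. These 8 are all the endothelial and fibroblast markers of the fixed marker set, and the Epas1 share lay among them. At day 0.5 Erg was found in 32.8% of cells, Tek in 25.4%, Emcn in 9.45%, Tie1 in 3.48% and the rest in fewer. The shares of Erg and Tek are therefore no gauge of stray RNA. Whether the 6.5 Epas1 UMIs of the 7 cells are remaining expression or stray RNA was not tested, and single UMIs per cell do not tell them apart.

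The 7 cells were spread over batches and cell cycle classes. Batch 2 held 4 and batch 3 held 3. The authors classed 3 as G1, 2 as mid S, 1 as early S and 1 as G2. By pseudotime 4 were among the 61 earlier cells of day 2.5, 1 among the 61 later ones, and 2 had no score. In 5 of them the naive list was below the day 2.5 median of 70.5 CPM. In a letter B cell of batch 2 in mid S it was 123 CPM, and in a G1 cell of batch 2 it was 756 CPM. The latter had the highest naive level of all 205 day 2.5 cells. In the rest of the 7 the naive level was that of at most a single UMI. Whether a cell with 1 such UMI lies above or below the median depends on its depth. The formative list, of genes that follow the naive state, stood at 3280 to 4897 CPM in the 7, around the day median of 3586 CPM. Conversely, the 10 day 2.5 cells highest in the naive list (362 to 756 CPM) together held 1 Epas1 UMI among 112376 UMIs.

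**Figure D2:**
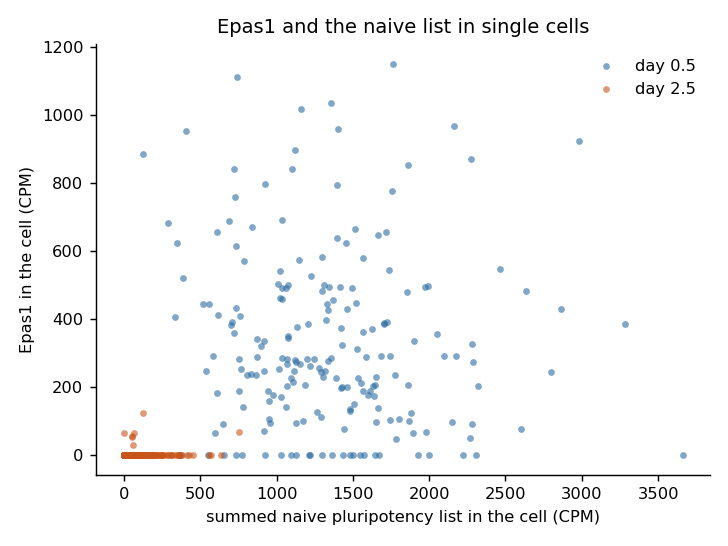
Epas1 (vertical axis, CPM) against the summed naive pluripotency list (horizontal axis, CPM), 1 point per cell of either day. Of the 205 day 2.5 cells 7 lie above 0 for Epas1, at 30.3 to 123 CPM. One of them is the cell with the highest naive level, 756 CPM, at 68.7 CPM of Epas1. The 30 day 0.5 cells with naive levels up to the same 756 CPM range from 0 to 1112 CPM of Epas1.

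Within day 0.5 the correlations of Epas1 with genes of these programmes were weak. Across the 194 deeper cells Pearson's r with 8 naive genes lay between -0.13 and 0.06 and with 8 formative genes between -0.06 and 0.14. With Hif1a, Arnt, Egln1 and Egln3 it lay between -0.055 and -0.0036. These are correlations in sparse counts that share each cell's depth as divisor, and they are descriptions.

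Hif1a, which encodes the alpha subunit of HIF1, was near its day 0.5 level. Cells held 0 to 6 Hif1a UMIs at day 0.5 and 0 to 12.5 at day 2.5, and the 2 days overlapped almost wholly. The gene, at chr12:73901324-73947554, stood at 108.4 CPM (96.3 to 122) and 128 CPM (116.03 to 141), a ratio of 1.18 (1.01 to 1.38) that was called neither higher nor lower. Within batch 2 the ratio was 1.06 (0.856 to 1.31). The share of cells with a UMI was 75.1% and 81.0%, or 40.6% and 44.2% after thinning. The 15 M cells of day 0.5, 9 of them with at least 5000 UMIs, stood highest at 241 CPM (159 to 352), against 95.4 CPM (78.9 to 114.3) in mid S. Of the day 0.5 cells 135 held both Epas1 and Hif1a, and 3 did at day 2.5, where 163 held Hif1a without Epas1.

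An annotated long noncoding gene, Gm15283, overlaps the far end of Hif1a, and no source used here says whether counting used strand. Gm15283 stood at 12.6 CPM (8.71 to 17.7) and then at 51.6 CPM (44.04 to 60.2), a ratio of 4.09 (2.81 to 6.13), and was called higher. UMIs of the 2 genes cannot be told apart with certainty in their shared stretch. Across day 2.5 cells their levels had an r of -0.07.

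The partner subunits divided. Arnt, at chr3:95434367-95497240, encodes the usual beta subunit and was found at 133 CPM (120 to 148) and 146 CPM (133 to 160), a ratio of 1.10 (0.952 to 1.26) that was called neither. Cells held 0 to 9 UMIs at day 0.5 and 0 to 10 at day 2.5, nearly the same range. Within batch 2 its ratio was 0.929 (0.769 to 1.12).

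Arnt2, at chr7:84246274-84411741, encodes a beta subunit best known from the nervous system, and it was called higher. Cells held 0 to 3 Arnt2 UMIs at day 0.5 and 0 to 8.5 at day 2.5. The low values overlapped, and only day 2.5 cells exceeded 3. The level was 12.05 CPM (8.24 to 17.01) at day 0.5 and 61.4 CPM (53.1 to 70.6) at day 2.5, a ratio of 5.09 (3.49 to 7.65). It was 61.1 and 61.7 CPM in the 2 batches of day 2.5, and the ratio within batch 2 was 5.18 (3.09 to 9.22). Arnt2 was found in 13.4% of day 0.5 and 49.3% of day 2.5 cells, or 5.79% and 24.04% after thinning. Arnt and Arnt2 were found together in 19 cells at day 0.5 and 78 at day 2.5. Of the 8 genes 3 were called higher (Arnt2, Egln1 and Egln3), where 19.4% of measured genes were, 1 was called lower and 4 neither.

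**Figure D3:**
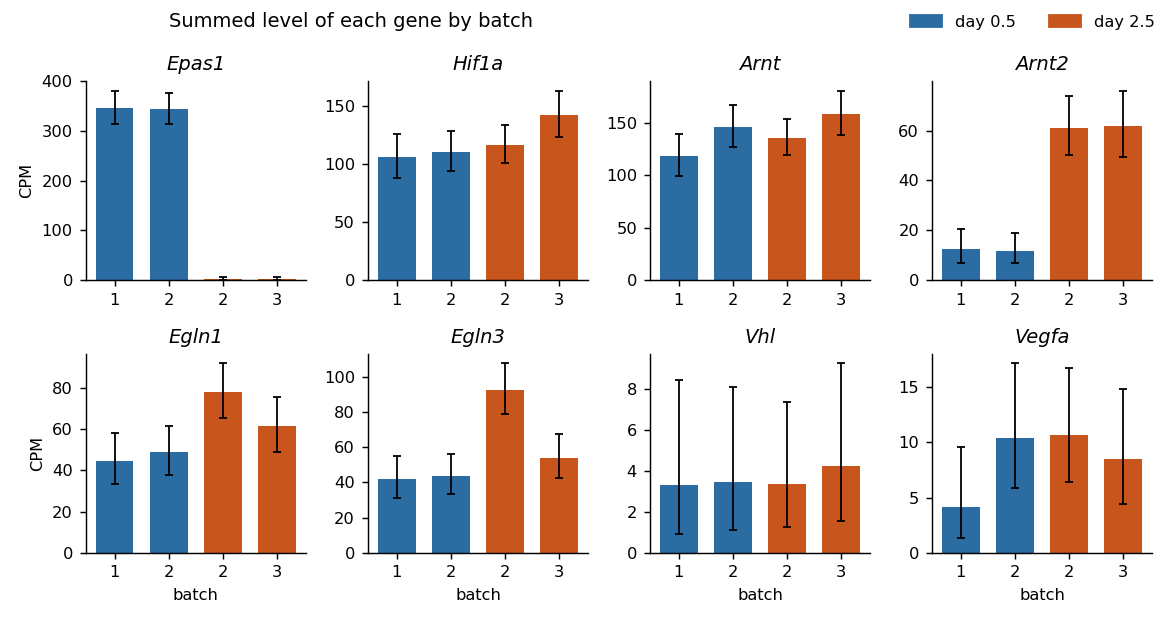
Summed level of each of the 8 genes (vertical axis, CPM, from 0) by batch (horizontal axis), in blue for day 0.5 and orange for day 2.5, with 95% Poisson intervals. Epas1 falls to near 0 and Arnt2 stands about 5 times higher in both day 2.5 bars, Egln3 is highest in the day 2.5 cells of batch 2 at 92.4 CPM, and the bars of Vhl and Vegfa have overlapping intervals throughout.

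Since a long gene may yield more UMIs, which was not tested here, levels were compared between genes per kilobase of gene span, introns included. At day 0.5 Epas1 led with 4.34 CPM per kb (4.06 to 4.63), above Hif1a at 2.35 and Arnt at 2.12, whose intervals overlapped. Egln3 followed at 1.72, overlapping Arnt, then Egln1 at 1.15. Vegfa at 0.489 and Vhl at 0.443 overlapped each other, and Arnt2 was lowest at 0.0728. At day 2.5 the order by CPM per kb was Egln3 at 3.03, Hif1a at 2.77 and Arnt at 2.32, each overlapping the next. Egln1 stood at 1.73. Vegfa at 0.632, Vhl at 0.493 and Arnt2 at 0.371 each overlapped the next. Epas1 was last at 0.0256 CPM per kb (0.00988 to 0.0542).

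The prolyl hydroxylase genes Egln1 and Egln3 were both called higher, Egln1 only just past the size required. Egln1 (chr8:124908587-124949254) encodes PHD2, the main oxygen sensor of most cells. Cells held 0 to 6 Egln1 UMIs at day 0.5 with a median of 0, and 0 to 9 at day 2.5 with a median of 1, so the days overlapped over most of the range. Its level was 46.7 CPM (38.8 to 55.7) and 70.5 CPM (61.5 to 80.3), a ratio of 1.51 (1.21 to 1.89). The ratio was 1.60 (1.19 to 2.16) within batch 2 and 1.49 in letter A cells. Without the cells under 5000 UMIs it was no longer called.

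Egln3 (chr12:54178981-54203874) encodes PHD3, whose gene is itself a well known HIF target. Cells held 0 to 8 Egln3 UMIs at day 0.5 and 0 to 26 at day 2.5, with a median of 0 on both days, and only day 2.5 cells exceeded 8. The level was 42.9 CPM (35.4 to 51.6) and 75.3 CPM (66.1 to 85.5), a ratio of 1.75 (1.40 to 2.21). It differed between the day 2.5 batches, 92.4 CPM (78.8 to 107.7) in batch 2 and 53.9 CPM (42.4 to 67.4) in batch 3. Within batch 2 the ratio was 2.11 (1.57 to 2.87), and in letter B cells 1.29 (0.634 to 2.66). Egln3 was found in 27.4% and 35.6% of cells, or 15.1% and 21.2% after thinning.

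Egln3 was unevenly spread on both days, with 29.8% of its UMIs in 5 cells at day 0.5 and 30.0% in 5 cells at day 2.5. At day 2.5 1 cell held 26 UMIs and the next highest 13, while the highest day 0.5 cell held 8. The 7 day 2.5 cells with 8 UMIs or more were all named with the letter A, 5 in batch 2 and 2 in batch 3. One of the 7 was the day 2.5 cell with the highest naive level and 1 Epas1 UMI. The 5 cells highest in Hif1a, a gene of more UMIs, held 10.0% of them at day 2.5.

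Across day 2.5 cells Egln3 was higher where HIF target genes were. This relation was looked for after its values had been seen, and it does not involve the contrast between the days. Across 198 cells with at least 5000 UMIs, Pearson's r between Egln3 and the summed level of 40 HIF target genes was 0.40. It was 0.38 in batch 2, 0.44 in batch 3, 0.37 in G1 cells, 0.53 in mid S cells and 0.37 without the cell highest in Egln3. The same r across 194 day 0.5 cells was 0.07. For the other genes at day 2.5 it was 0.35 for Egln1, 0.22 for Vegfa, 0.10 for Arnt, 0.01 for Hif1a and 0.01 for Arnt2. For Gm15283 it was 0.50 at day 2.5 and -0.03 at day 0.5. Of 23 target genes with at least 100 UMIs at day 2.5, 22 had an r above 0 with Egln3, with a median of 0.14, while 45.7% of 5571 genes did, with a median of -0.01. Gm15283 had the highest r with Egln3 of all 5571, at 0.36, and the best target was P4ha1, which encodes a collagen prolyl hydroxylase, at 0.30. All these values divide by the depth of the same cell and come from the same libraries.

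**Figure D4:**
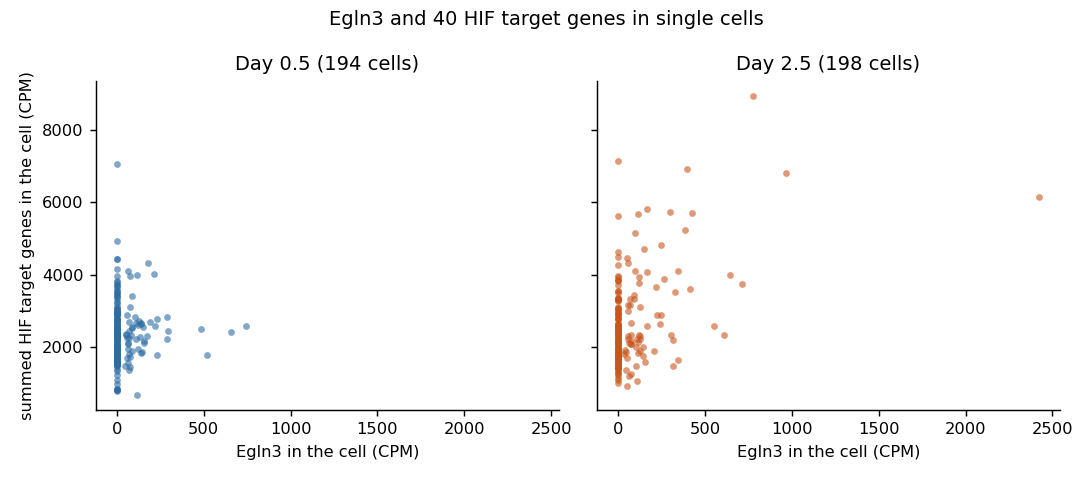
Summed level of 40 HIF target genes (vertical axis, CPM) against Egln3 (horizontal axis, CPM) in each cell with at least 5000 UMIs, 194 at day 0.5 and 198 at day 2.5. At day 2.5 the cells high in Egln3 include several of the highest target sums, and 1 cell lies apart at 2423 CPM of Egln3. Pearson's r on the log scale was 0.07 and 0.40.

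Vhl (chr6:113623994-113631634), whose protein is the recognition subunit of the ubiquitin ligase for hydroxylated alpha subunits, was at the limit of detection. It had 9 UMIs in 9 cells at day 0.5 and 12 UMIs in 11 cells at day 2.5. The levels of 3.39 CPM (1.55 to 6.43) and 3.77 CPM (1.95 to 6.58) do not allow a difference to be seen. Vegfa (chr17:46016993-46032377), which encodes the vascular growth factor that HIF is best known to induce, had 20 UMIs in 16 cells and 31 UMIs in 24 cells. Its levels of 7.53 CPM (4.60 to 11.6) and 9.73 CPM (6.61 to 13.8) gave a ratio of 1.29 (0.713 to 2.39), called neither.

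Around these 8 genes, the wider list of oxygen sensing and HIF turnover had 15 measured genes, of which 0 were called higher, 5 lower (33.3%, beside 20.4% of all measured genes) and 10 neither, with a median log2 change of -0.45. The 5 were chosen for naming after their values were seen: Egln2, encoding the third prolyl hydroxylase, from 28.6 to 15.7 CPM, Elob and Rbx1, which encode subunits of the VHL ligase, from 16.4 to 5.34 and 58.7 to 36.3 CPM, and Siah2 and Siah1b, of a ligase family that acts on the hydroxylases, from 7.53 to 1.57 and 17.7 to 4.71 CPM. The 4 with the most UMIs, the chaperones Hsp90aa1 and Hsp90ab1, the scaffold Rack1 and the VHL ligase scaffold Cul2, were called neither.

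Relatives of the HIF subunits, which share their bHLH-PAS fold, were called in both directions. Of 10 measured, 4 were called higher (40.0%, beside 19.4% of all measured genes), 2 lower (20%, beside 20.4%) and 4 neither, with a median log2 change of 0.24. Npas3, a neuronal factor, went from 25.2 CPM (67 UMIs) to 164 CPM (521 UMIs), a ratio of 6.48 (5.02 to 8.49). The aryl hydrocarbon receptor gene Ahr, another partner of ARNT, was at 20.3 CPM and then at 57.6 CPM, 2.83 times (2.08 to 3.91) its earlier level. Hif3a, the third alpha subunit gene, went from 12.4 CPM in 28 cells to 22.9 CPM in 50 cells, a ratio of 1.84 (1.21 to 2.87). Sim1 was the last of the 4, at 1.51 and 5.65 CPM on 22 UMIs in all. The circadian factor Clock, called lower, stood at 220 and 102.6 CPM. Its relative Npas2, also past the size for a lower call, stood at 12.05 and 7.53 CPM with a ratio of 0.625 whose interval of 0.352 to 1.10 includes no change.

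Of 11 measured coactivators and modifiers of HIF, 0 were called higher, 3 lower (27.3%, beside 20.4% of all measured genes) and 8 neither, with a median log2 change of 0.01. The 3 were Ncoa3, from 796 to 165 CPM, the acetyltransferase Kat2b, from 546 to 176 CPM, and the deacetylase Sirt1, from 428 to 202 CPM. The main coactivators of HIF, Ep300 and Crebbp, stood at 228 and 455 CPM at day 0.5 and at 255 and 507 CPM at day 2.5, and were called neither.

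Genes that HIF is known to induce were called in both directions. Of 40 measured, 12 were called higher, 4 lower and 24 neither, with a median log2 change of 0.27 (interval -0.05 to 0.45) against -0.06 over all measured genes. The 12 are 30.0% of the list beside 19.4% of all measured genes, and the 4 are 10.0% beside 20.4%, with no test of the difference. The summed level per cell had a median of 2319 CPM at day 0.5 and 2323 CPM at day 2.5, with a highest cell of 7047 and 9381 CPM. Of the 4 with the most UMIs, the glucose transporter Slc2a3 went from 442 to 280 CPM and the histone demethylase Kdm3a from 257 to 140 CPM, both called lower. The glycolytic enzyme gene Eno1 stood at 242 and 296 CPM and the nuclear receptor gene Rora at 188 and 217 CPM, both called neither.

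The 5 with the highest change were named after their values were seen. Ddit4, a stress-induced inhibitor of mTORC1, had 14 UMIs in 11 cells at day 0.5 and was found in 82 cells at day 2.5, at 5.27 and 37.04 CPM. Plod2, which hydroxylates collagen lysines, went from 20.9 to 91.8 CPM. Bnip3, a receptor for mitochondrial autophagy, had 4 UMIs in 4 cells and 43 UMIs in 34 cells. Fam162a went from 47.4 to 120 CPM and the lactate exporter gene Slc16a3 from 24.1 to 54.3 CPM. Within batch 2 the same 5 were higher, for example Plod2 at 22.2 and 87.1 CPM and Fam162a at 50.0 and 113.8 CPM. Batch 2 holds 121 of the 201 day 0.5 and 122 of the 205 day 2.5 cells that chose the 5. Its values are therefore no separate evidence for them. Promoter entries existed for 33 of the 40 genes, and 30 of the 33 held ACGTG or GCGTG in the 250 bases of at least 1 promoter, beside 41.5% of all genes. Genes with several promoters and promoters rich in G and C have more chances to hold the letters. The list was made of known HIF targets, so its share of these letters does not show HIF acting in these cells.

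Genes credited mainly to HIF2, the complex of Epas1 itself, were called in both directions. Of 10 measured, 4 were called higher (40.0%, beside 19.4% of all measured genes), 2 lower (20%, beside 20.4%) and 4 neither, with a median log2 change of 0.11. Those called lower were the cell cycle gene Ccnd1, from 118.2 to 35.5 CPM, and the pluripotency gene Pou5f1, from 31.3 to 13.5 CPM. Those called higher were the iron exporter gene Slc40a1, with 1 UMI at day 0.5 and 77 at day 2.5, the growth factor gene Tgfa, with 1.5 and 53 UMIs, the VEGF receptor gene Flt1, from 12.4 to 58.1 CPM, and Igfbp3, from 6.40 to 20.1 CPM. Tek, the angiopoietin receptor gene, stood at 26.2 and 18.7 CPM and was called neither.

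Among the other VEGF ligands and receptors, Vegfc, the lymphatic growth factor, went from 298 CPM to 36.1 CPM and the coreceptor Nrp2 from 182 to 5.02 CPM. Both were called lower. The receptors Flt1 and Flt4 and the ligand Vegfb were called higher, Flt4 going from 1.69 to 10.99 CPM and Vegfb at 6.02 and 9.42 CPM with a ratio of 1.56 whose interval of 0.825 to 3.07 includes no change. Vegfd and Nrp1 were called neither, so of 7 measured genes 3 were called higher (42.9%, beside 19.4% of all measured genes), 2 lower (28.6%, beside 20.4%) and 2 neither, with a median log2 change of 0.03.

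**Figure D5:**
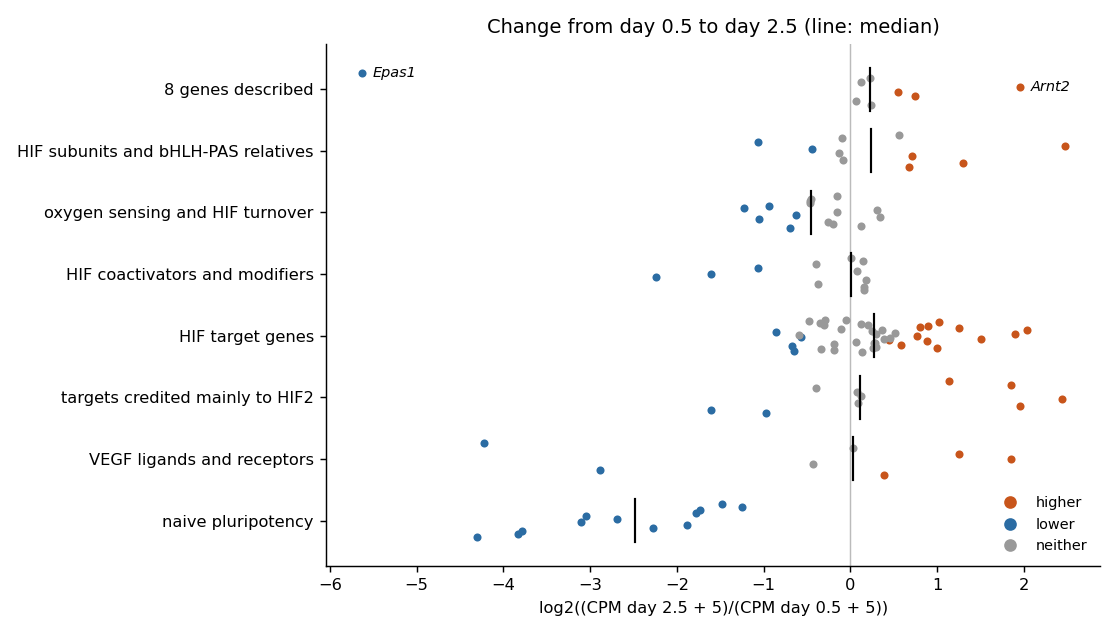
Log2 change from day 0.5 to day 2.5 (horizontal axis, with 5 CPM added to each level) of the 8 genes and of the measured genes of 7 lists (rows), 1 point per gene, in orange where called higher, blue where lower and grey where neither. Lines mark medians. Epas1 lies at -5.64, beyond all genes of the lists shown, and Arnt2 at 1.96.

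Epas1 is a classical marker of blood vessels, so genes of other lineages are given beside it. Of the endothelial and blood list 15 of 16 genes were in the table and 5 reached 20 UMIs, of which 0 were called higher, 3 lower (60.0%, beside 20.4% of all measured genes) and 2 neither. Its summed level per cell had a median of 93.9 CPM (0 to 1996) at day 0.5 and 0 CPM (0 to 464) at day 2.5. Cdh5, Sox17, Etv2 and Cldn5 of that list had no UMI in any day 0.5 cell. Erg was found in 66 day 0.5 cells, Tek in 51, Emcn in 19 and Tie1 in 7. The 3 called lower were Erg, from 64.01 to 11.1 CPM, Robo4, from 15.4 to 0.63 CPM, and Emcn, at 7.53 and 3.45 CPM with a ratio of 0.458 (0.198 to 1.00). Tek was found in 51 and 43 cells and called neither, as was Gata1 at 10.5 and 4.39 CPM, where the letters did not move the same way. Of 5 measured genes of primitive endoderm and trophectoderm, Lamb1, at 24.3 and 161 CPM, and Dab2, at 8.66 and 26.99 CPM, were called higher. Tead4, at 108.1 and 12.2 CPM, and Eomes, at 4.89 and 2.82 CPM on 22 UMIs in all, were called lower, and Gata4 neither. The 2 called higher are 40% of the 5 beside 19.4% of all measured genes, and the 2 called lower 40% beside 20.4%. The part of such cells in the Epas1 level was not tested.

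All 12 measured genes of the naive list were called lower (100%, beside 20.4% of all measured genes). Their median log2 change was -2.48, from Esrrb at -4.30 to Fgf4 at -1.25. Of 14 measured formative and primed genes 10 were called higher (71.4%, beside 19.4%), 3 lower (21.4%, beside 20.4%) and 1 neither. Their median log2 change was 1.08. The part of either list in the change of Epas1 was not tested.

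Of 7 measured genes within 500 kb of Epas1, 0 were called lower and 2 higher, beside 20.4% and 19.4% of all measured genes, and so few genes give no reading of the region. On the near side Prkce stood at 91.9 and 79.7 CPM. On the far side, Rhoq, at 130 kb, went from 39.3 CPM to 147 CPM, a ratio of 3.74 (3.02 to 4.67), and was called higher. Ttc7 was called higher too, from 29.2 to 46.8 CPM. Pigf stood at 20.3 and 39.9 CPM but moved in opposite directions in the letters and was called neither, as were Cript, Socs5 and Mcfd2.

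The genes most like Epas1 were found over 24 strata of day, batch, letter and cycle class, by Pearson's r of log2 levels among 7716 genes. Since both days enter, this likeness rests on the difference between them, which chose Epas1. The 6 highest were Arl14epl (r of 0.98), Gm14820 (0.98), Rbpj (0.98), Jam2 (0.98), Gm19200 (0.97) and Porcn (0.97). Jam2 went from 421 to 4.08 CPM, Porcn, which encodes the acyltransferase of Wnt proteins, from 195 to 5.34 CPM, and Rbpj, which encodes the transcription factor of the Notch pathway, from 3274 to 383 CPM. Over the same strata r was -0.86 for Arnt2, -0.26 for Egln3, -0.17 for Egln1, 0.15 for Hif1a and 0.02 for Arnt. Over the 12 strata of day 0.5 alone, where the contrast plays no part, the highest were other genes, Boll (0.95), Bcr (0.93), Pde9a (0.90), Arhgef17 (0.88), Zfp946 (0.88) and Arhgap8 (0.87), and none of the first 6 was among them. With 12 strata of few cells such values are descriptions.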

How the data were processed

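HiRES RNA was analysed in the 406 cells that the sample titles name and the deposited expression table holds. The authors' table gives expected counts of UMIs per gene and cell, of which 11.1% of the values above 0 are fractions, and they were used as deposited. The authors' cell tables give counts of UMIs in genes, expected counts of exon UMIs (26.3% and 24.2% of gene UMIs at day 0.5 and 2.5), cell cycle classes, batch labels and, per the file headers, a pseudotime score. Per the submitters' processing notes, reads were handled on GRCm38. The meaning of the batch labels and letters, the aligner, the counter, strand and the cell filters are not given in the sources used. The table's 1101 other columns were not used.

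UMIs were summed per day and scaled to CPM. Changes are log2((CPM day 2.5 + 5)/(CPM day 0.5 + 5)), and calls need at least 20 UMIs over both days. Intervals are 95% (Poisson, exact, for levels, conditional binomial for ratios, Clopper-Pearson for shares, order statistics for list medians) and cover counting error only, since UMIs of 1 sample are no replicates. Thinned shares are exact expectations at 5000 UMIs over cells with at least as many. Correlations across cells use log2(CPM + 50), and those over strata use strata of at least 5 cells. With 1 sample a day no test was made. By rule the genes that may be named are the 8 described, up to 4 with the most UMIs of each list, genes called in lists of at most 12 measured, the 6 most like Epas1 and all measured within 500 kb. The 8 genes and the lists were chosen with earlier results of these data known. Promoter sequences and gene positions came from RefSeq tables of GRCm38.p6. Scripts used Python 3.11.15, numpy 2.4.6, pandas 2.3.3 and scipy 1.17.1, and were tested on simulated counts. Alternatives covered scaling, pseudocount, per-cell means, batch 2, each letter, deeper cells, rounding, cycle classes and the call rules.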

Additional observations from a re-analysis of the deposited data

How the results depend on the processing

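No paired analysis was possible because each day is 1 sample and the numbers in the labels only name cells. Epas1 was called lower under all 10 alternatives to the call rule, and its log2 change lay between -6.83 and -5.39 over 9 alternatives. The one value outside its counting interval was -6.83, with a pseudocount of 1 CPM in place of 5, which by construction shrinks the change less. The share of day 0.5 cells with an Epas1 UMI was 73.8% after thinning, 78.6% for at least 2 UMIs, 81.8% in batch 2 and 76.2% in letter B, whose cells are shallower. That of day 2.5 cells was 1.17% after thinning and 0% for at least 2 UMIs. With a ratio of 2 in place of 1.5, the genes called higher numbered 1 (Arnt2), and without cells under 5000 UMIs they numbered 2. The median change of HIF target genes stayed between 0.22 and 0.34 over 11 alternatives. Arnt, called neither, was at -0.10 in batch 2 and -0.36 in letter B, Vegfa at -0.66 in letter B, and Egln3 at 0.33 in letter B. The cause was not tested. The correlation of Egln3 with HIF target genes across day 2.5 cells lay between 0.37 and 0.53 over 6 subsets of cells chosen after seeing the data. Letter B rests on 42 and 32 cells, which limits the precision of its values.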
